A study of Mus musculus with 12 samples.

Results

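The MHC class II antigen presentation pathway was followed through 10 genes, H2-Aa, H2-Ab1, H2-Eb1, H2-Eb2, Cd74, Ciita, H2-DMa, H2-DMb1, H2-Oa and H2-Ob, chosen by symbol out of 24421 genes in the deposited count table. All 10 passed the filter on low counts and were tested among 17411 genes. The libraries were made from mouse pancreatic islets, labelled as predominantly beta cells. Knockout mice carried Bmal1fl/flRIPCreERT/+, in which a tamoxifen-inducible Cre recombinase under the rat insulin promoter deletes the clock gene Bmal1 (listed as Arntl) in beta cells. Control mice carried Bmal1fl/fl without Cre, so both genotypes share the floxed alleles. Mice received citrate buffer (vehicle) and gave islets 24 h later, or received streptozotocin (STZ), a toxin that enters beta cells, at a submaximal dose and gave islets 24 h or 4 wk later. The 6 groups, knockout and control under each of these 3 conditions, had 2 libraries each, A and B. Whether A and B came from separate animals is not stated in the labels, and p-values then measure only the spread between these libraries. Age, sex and strain are not given in the sources used here. Every vehicle library is labelled 24 h, so a comparison of 4 wk with vehicle mixes treatment and time.

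Class II molecules are surface heterodimers that show peptides from endosomes to CD4+ T cells. H2-Aa and H2-Ab1 encode the alpha and beta chain of the mouse molecule I-A, and H2-Eb1 encodes the beta chain of I-E. Cd74 encodes the invariant chain, which fills the groove of new class II dimers and takes them to endosomes. H2-DMa and H2-DMb1 encode the chains of H2-M, which exchanges the remnant of the invariant chain for peptide, and H2-Oa and H2-Ob encode the chains of H2-O, an inhibitor of H2-M found mainly in B cells. Ciita encodes the coactivator on which transcription of class II genes depends. Macrophages, dendritic cells and B cells are the usual sources of these transcripts, and interferon gamma induces them in many other cells. In bulk libraries, fewer cells of a type and less RNA per cell cannot be told apart, and the same holds for more cells and more RNA per cell.

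In mm10, 8 of the 10 genes lie within 249032 bases of chromosome 17, at chr17:34092379-34341410. Ciita and Cd74 lie on other chromosomes, Ciita at chr16:10480072-10527640 on the plus strand. The annotated H2-Aa transcript spans chr17:34282751-34287771 on the minus strand in 5 exons, and H2-Ob spans chr17:34238905-34245908 on the plus strand in 6 exons. H2-DMb1 has a near-identical neighbour, H2-DMb2, and the split of reads between them is uncertain. For H2-Oa, 30.6% of exonic bases overlap the antisense gene BC051537, though per the file headers the counting used strand.

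The promoters of class II genes are known for a pair of conserved elements, an X box bound by RFX factors and a Y box bound by NF-Y. RefSeq promoter windows (GRCm38.p6, 250 bases before to 50 after the annotated start) matched 7 of the 10 genes. The letters CNNGNNAC followed after 15 to 45 bases, start to start, by TGATTGG were found in 6 of these 7. On either strand, 84.6% of all 32851 windows hold the first motif, 7.82% hold the second and 0.907% hold the ordered pair. The 6 stretches are shown to let the shared layout be seen, 5′ to 3′ on the strand of the gene, with both motifs in capitals.
H2-Aa: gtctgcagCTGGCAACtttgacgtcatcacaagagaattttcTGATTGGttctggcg
H2-Eb1: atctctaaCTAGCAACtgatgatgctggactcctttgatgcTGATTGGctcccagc
H2-Eb2: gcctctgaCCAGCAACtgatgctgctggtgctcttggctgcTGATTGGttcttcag
H2-DMb1: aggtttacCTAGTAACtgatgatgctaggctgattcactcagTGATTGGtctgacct
H2-Oa: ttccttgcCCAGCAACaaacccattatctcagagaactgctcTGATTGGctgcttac
H2-Ob: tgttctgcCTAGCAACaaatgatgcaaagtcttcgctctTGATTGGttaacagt
They lie at chr17:34287859-34287915 (minus strand, H2-Aa), chr17:34305765-34305820 (H2-Eb1), chr17:34325532-34325587 (H2-Eb2), chr17:34153086-34153142 (H2-DMb1), chr17:34092292-34092348 (H2-Oa) and chr17:34238807-34238860 (H2-Ob), the last 5 on the plus strand. The distance between motif starts was 31 to 34 bases in all 6, and the first motif began 79 to 135 bases before the start site. The H2-DMa window held the first motif and not the pair. A match of letters is a description of the window and shows no binding.

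Total counts per library ran from 101772241 to 127207523. Esr1, whose ligand-binding domain is part of inducible Cre fusions, had 51.1 to 359 CPM in the 6 knockout libraries and 0.706 to 2.29 CPM in the 6 control libraries. Arntl counts cover exons outside the deleted part, so the gene total checks nothing. Coverage of its exon 8, the exon usually floxed, was 90.3 and 106% of the mean of the exons on either side in knockout libraries 24 h after STZ, 59.1 to 85.7% in the other 4 knockout libraries and 107 to 134% in control libraries. None of 12 beta-cell markers was at 0 in any library, and acinar markers took 84990 to 377300 CPM in sum. Beta-cell markers summed to 22760 and 25330 CPM in knockout libraries 24 h after STZ, against 46780 to 146100 CPM in the other 10. The 15 pan-endocrine markers summed to 5335 and 5394 CPM there, against 14160 to 23260 CPM in the other 10. Knockout libraries at 24 h after STZ stood apart in transcripts of lymphoid tissue and liver. Summed CPM of 12 B-cell markers was 498 and 495 there, against 2.98 to 28.0 in the other 10 libraries, and of 11 liver markers 17780 and 17060 there, against 1015 to 5956. Knockout libraries at 4 wk stood apart in 13 intestinal markers, at 14050 and 14900 CPM in sum, against 173 to 1419 in the other 10. Both libraries of a group carry these transcripts, so no comparison can be run without them, and their part in the results below was not tested.

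In knockout islets 24 h after STZ, all 10 class II genes were higher than in control islets 24 h after STZ. This comparison asks whether levels after the same injury differ between the genotypes, which differ in Cre as well as in the deletion. The difference in response is tested below as an interaction. Across all tested genes, 43% passed the threshold of an adjusted p of 0.05 and 23.7% were higher in knockout, so the count alone is read against a wide shift. The median log2 fold change of the 10 genes was 3.36, and that of all tested genes was 0.00.

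The I-A and I-E chains were measured with high counts. H2-Aa had 352 and 362 CPM (counts scaled to the TMM-adjusted depth of each library) in knockout islets 24 h after STZ and 40.7 and 40.8 CPM in control islets. Its log2 fold change was 3.13 ± 0.12 (SE), 8.754-fold, with an adjusted p of 1.18e-06 by edgeR's quasi-likelihood test. H2-Ab1 had 144 and 163 CPM in knockout and 17.1 and 20.1 CPM in control, a log2 fold change of 3.04 ± 0.27. H2-Eb1 had 219 and 225 CPM in knockout and 28.4 and 29.5 CPM in control, a log2 fold change of 2.94 ± 0.19. The groups did not overlap for any of these chains. The alpha chain of I-E is listed under H2-Ea-ps, which had 0 counts in every library; in mice of the b haplotype this gene is known not to be expressed.

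The invariant chain and the peptide exchange factor moved by similar factors. Cd74 had 574 and 656 CPM in knockout islets 24 h after STZ and 73.4 and 72.2 CPM in control islets, a log2 fold change of 3.08 ± 0.38 with an adjusted p of 0.000263. H2-DMa had 19.0 and 24.2 CPM in knockout and 2.88 and 2.65 CPM in control, a log2 fold change of 2.97 ± 0.42. H2-DMb1 had 19.6 and 21.1 CPM in knockout and 1.71 and 1.64 CPM in control, a log2 fold change of 3.60 ± 0.35. Thus 6 genes, the I-A and I-E chains, the invariant chain and both H2-M chains, had fold changes between 7.67 and 12.1.

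The coactivator and the H2-O chains moved by larger factors. Ciita had 30.8 and 37.1 CPM in knockout islets 24 h after STZ and 1.46 and 1.31 CPM in control islets, a log2 fold change of 4.61 ± 0.36 with an adjusted p of 2.04e-05. H2-Ob had 74.1 and 67.5 CPM in knockout and 0.552 and 0.369 CPM in control, a log2 fold change of 7.27 ± 0.25 with an adjusted p of 7.00e-07. H2-Oa had 8.59 and 9.84 CPM in knockout and 0.0702 and 0.112 CPM in control, on 22 counts over both control libraries. Its ratio of summed counts per depth was 100 (95% counting interval 51.1 to 230). H2-Eb2, a second gene of the E beta type, had 23.2 and 19.6 CPM in knockout, on 4305 counts, and 0 counts in both control libraries. Against a floor of 3 fragments (8 counts) over the control group, it was at least 637-fold higher in knockout. Reads were pairs of 100 bases and a count stands for 75 bases, so a fragment gives about 2.67 counts; intervals and floors were computed on counts divided by that number and cover counting error only.

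**Figure D1:**
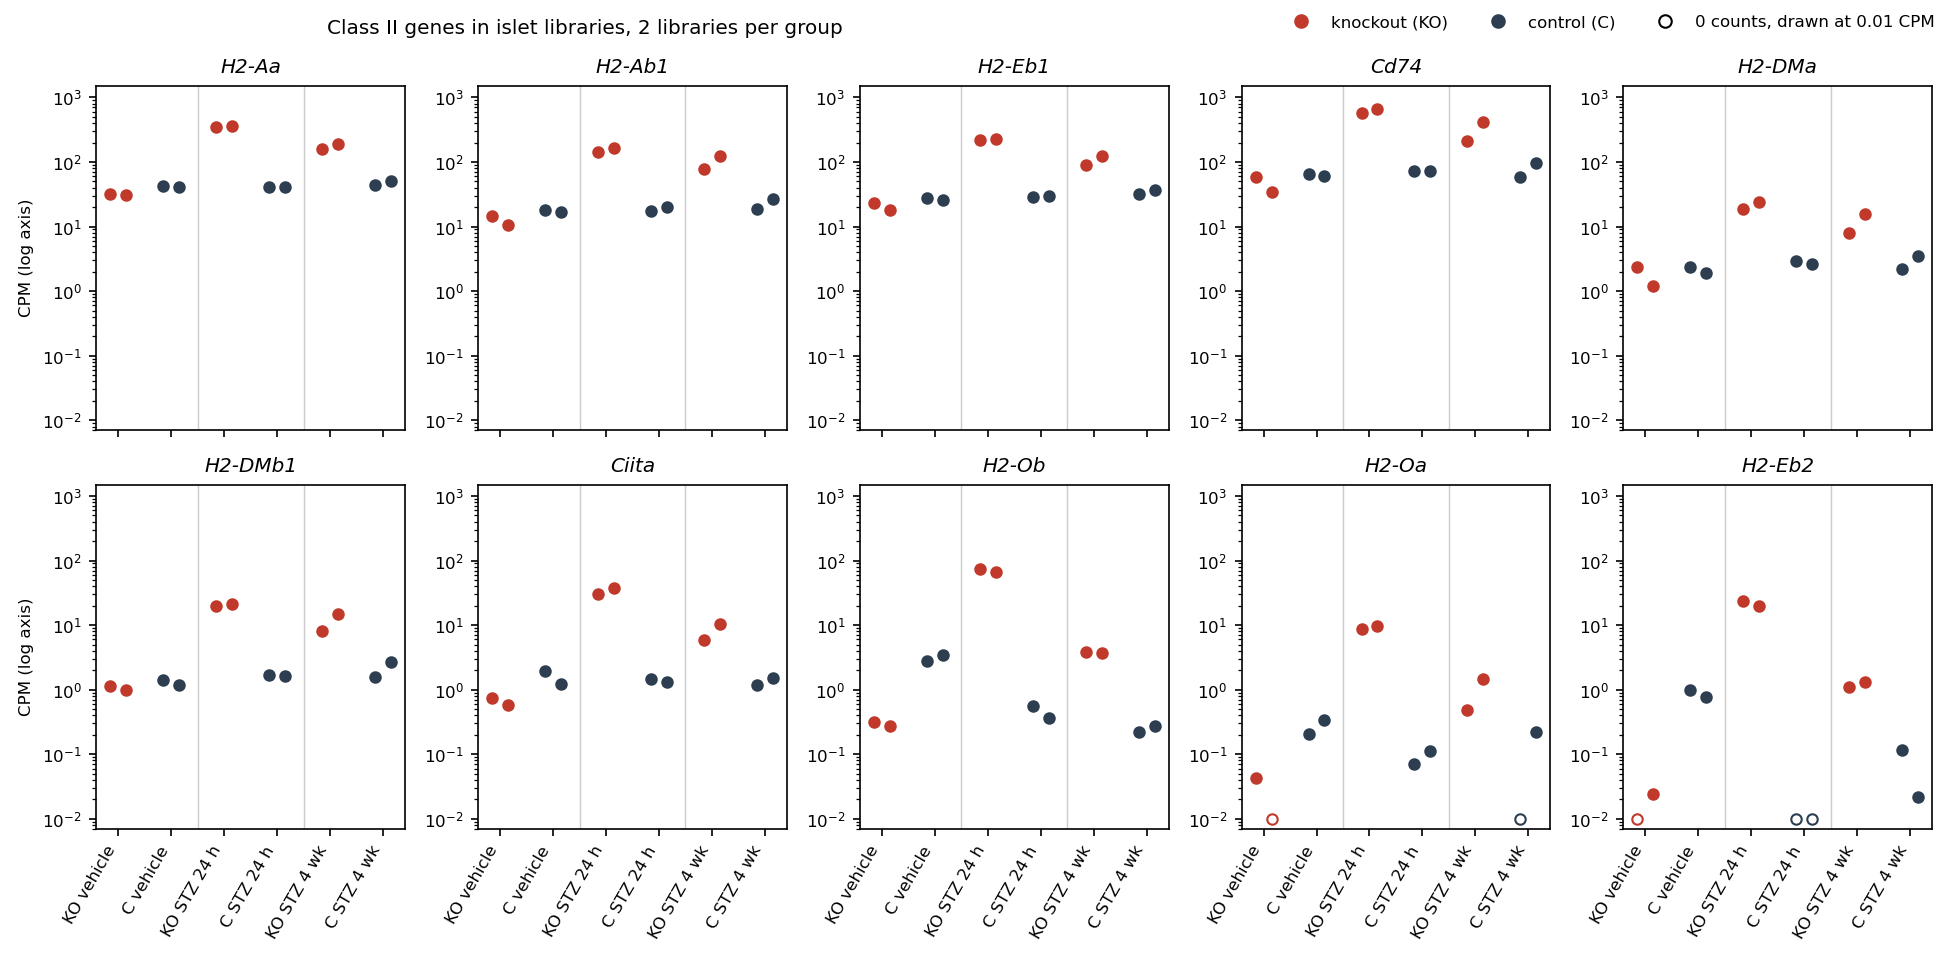
CPM (log axis) of the 10 class II genes in each of 12 libraries, by condition, with knockout (red) left of control (dark) and 1 point per library; open points had 0 counts. H2-Aa sits at 352 and 362 CPM in knockout islets 24 h after STZ and at 31.1 to 50.4 CPM in all vehicle and control libraries, while H2-Ob also differs between the vehicle groups.

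Per length, the order of the genes was much the same in both genotypes at the top and differed at the bottom. In knockout islets 24 h after STZ, Cd74 averaged 632 ± 51.3 TPM (SD, n = 2 here and for each mean TPM), followed by H2-Aa at 432 ± 4.17 TPM. H2-Eb1 at 172 ± 2.19 TPM and H2-Ab1 at 167 ± 12.52 TPM did not differ beyond their spread. H2-Ob followed at 34.3 ± 2.59 TPM, H2-DMb1 at 20.5 ± 0.863 TPM, H2-DMa at 16.85 ± 2.70 TPM, H2-Oa at 11.4 ± 0.983 TPM, and Ciita and H2-Eb2 both at 8.20 TPM. In control islets 24 h after STZ the highest was Cd74 at 85.01 ± 3.14 TPM, followed by H2-Aa at 56.9 ± 1.32 TPM, H2-Eb1 at 25.9 ± 0.0566 TPM and H2-Ab1 at 23.25 ± 2.04 TPM. There H2-DMa at 2.49 ± 0.204 TPM and H2-DMb1 at 1.95 ± 0.104 TPM were above H2-Ob at 0.255 ± 0.0779 TPM. At 24 h after STZ, H2-Ob thus stood above both H2-M chains in knockout islets and below both in control islets. In knockout islets H2-Ob was below both under vehicle, at 0.206 TPM, and at 4 wk, at 2.35 TPM.

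Markers of several leukocyte types were higher in the same knockout libraries. All 12 macrophage markers, all 12 B-cell markers, all 12 T-cell markers and 9 of 10 dendritic-cell markers were higher in knockout islets 24 h after STZ, with median log2 fold changes of 2.93, 9.36, 6.72 and 4.18. For all tested genes, 23.7% were higher. Lyz2, a lysozyme of macrophages and granulocytes, had 670 and 637 CPM in knockout and 61.5 and 58.4 CPM in control. Ms4a1, which encodes the B-cell surface protein CD20, had 93.3 and 81.8 CPM in knockout and 0.0702 and 0.112 CPM in control. Xcr1, a chemokine receptor of cross-presenting dendritic cells, had 6.01 and 6.30 CPM in knockout and 0.123 and 0.0881 CPM in control. Summed over the list, macrophage markers reached 2187 and 2361 CPM in knockout and 406 and 426 CPM in control, with none of 12 at 0 in any library. The B-cell list had 2 or 3 of 12 markers at 0 in the control libraries and none in knockout.

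**Figure D2:**
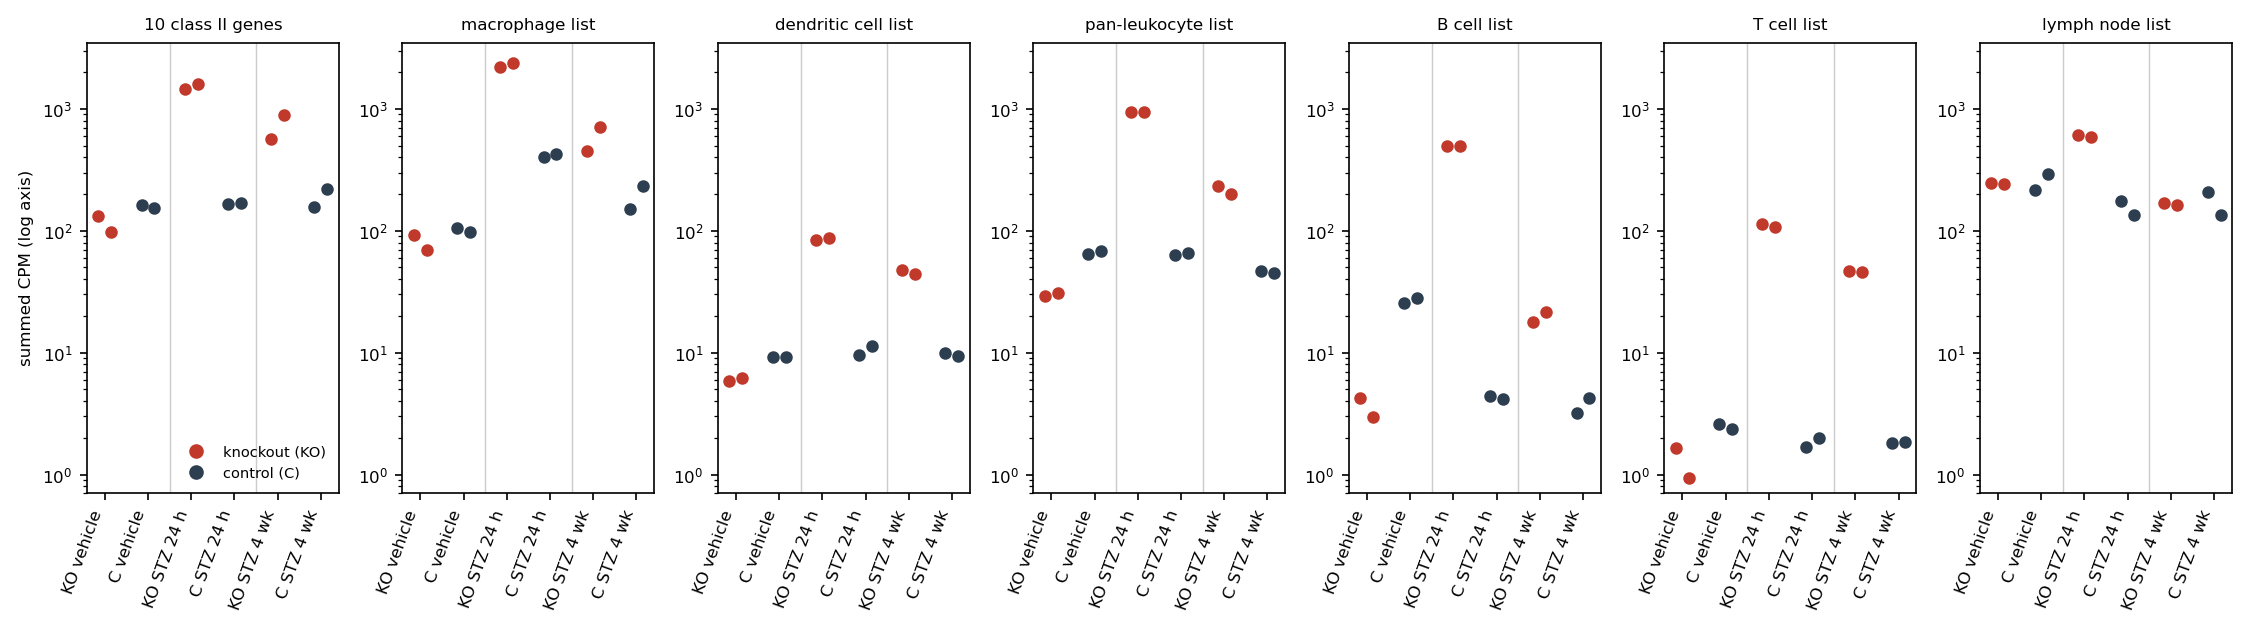
Summed CPM (log axis) of the 10 class II genes and of 6 lists of cell-type markers in each library, with knockout (red) left of control (dark). The class II sum is 1464 and 1584 CPM in knockout islets 24 h after STZ and 166 and 169 CPM in control islets. Under vehicle the B-cell sum is 4.26 and 2.98 CPM in knockout and 25.7 and 28.0 CPM in control. The macrophage sum is lower there by a smaller factor, at 92.2 and 69.3 CPM in knockout and 105.5 and 98.35 CPM in control.

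Setting the class II genes against those markers separated them. When the libraries were scaled to the 12 macrophage markers in place of TMM, 5 of 10 class II genes passed at 24 h after STZ, all higher in knockout. They were H2-Ob at a log2 fold change of 4.44, H2-Oa at 3.82, Ciita at 1.78, H2-DMb1 at 0.78, and H2-Eb2. The I-A chains, H2-Eb1, Cd74 and H2-DMa did not pass and lay between 0.12 and 0.31. Under this scaling the median tested gene lay at -2.81, 3.33% of genes were higher and 84.2% lower. Scaled to 8 pan-leukocyte markers, H2-Ob at 3.19 and H2-Eb2 were higher in knockout and 5 genes were lower, H2-Aa at -0.93, H2-Ab1 at -1.01, H2-Eb1 at -1.12, Cd74 at -0.99 and H2-DMa at -1.10, with the median tested gene at -4.05, 1.64% of genes higher and 89.9% lower. At 24 h after STZ the direction between genotypes thus turned with the pan-leukocyte scaling for 6 of the 10 genes, H2-DMb1 at -0.46 included. For Ciita, H2-Ob, H2-Oa and H2-Eb2 it did not turn with either scaling. Ciita at 0.55 and H2-Oa at 2.60 did not pass under pan-leukocyte scaling.

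**Figure D3:**
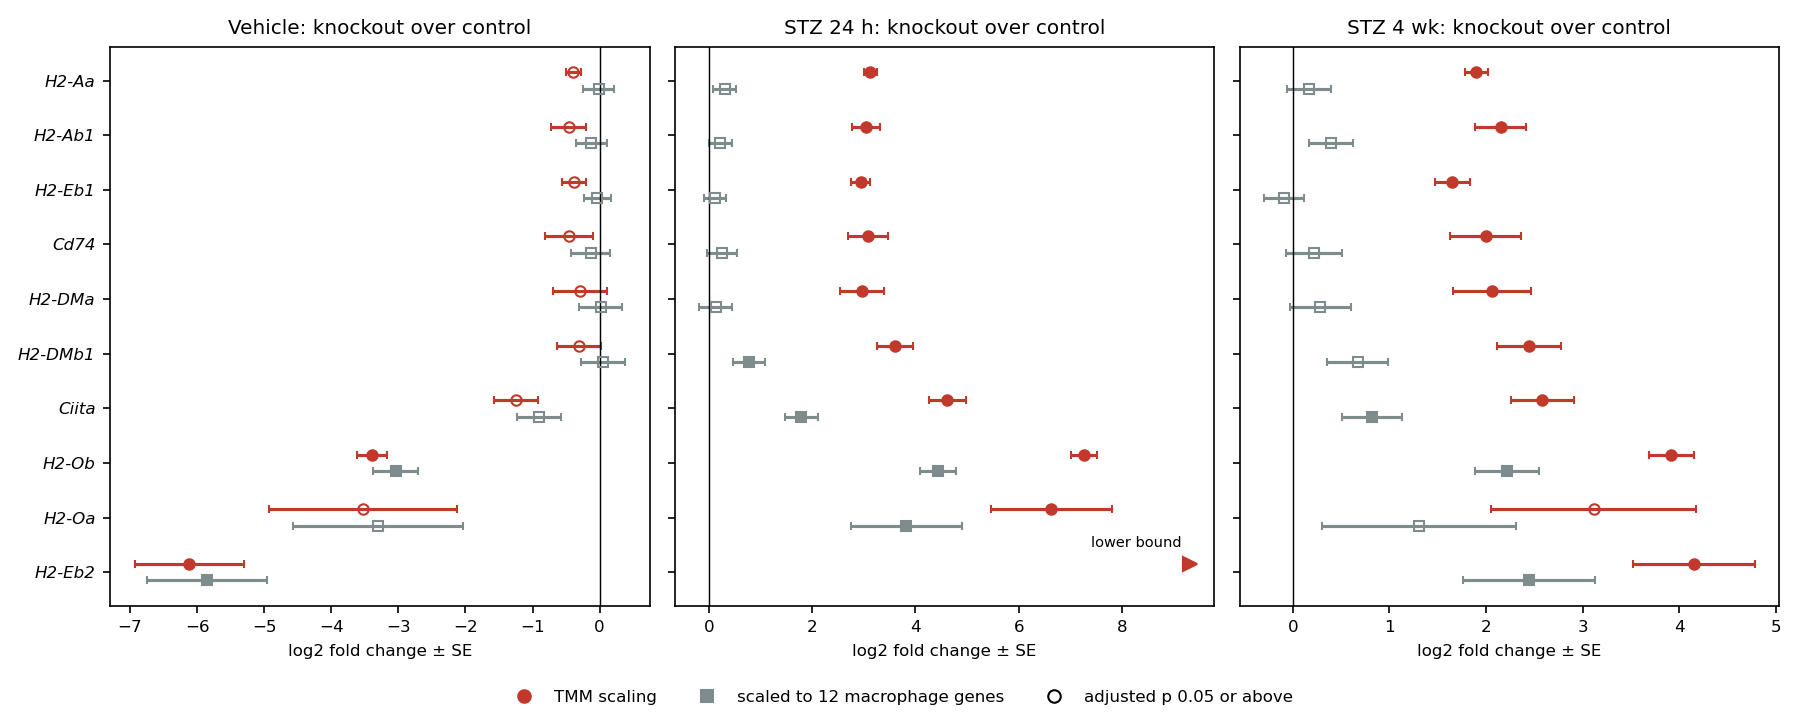
Log2 fold change (± SE) of knockout over control for each class II gene in 3 conditions, under TMM scaling (red circles) and scaled to 12 macrophage markers (grey squares); filled symbols passed an adjusted p of 0.05, and H2-Eb2 at 24 h after STZ is drawn as a lower bound. At 24 h the circles of the 6 genes from H2-Aa to H2-DMb1 lie between 2.94 and 3.60 and their squares between 0.12 and 0.78, while H2-Ob stays at 4.44 under macrophage scaling.

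Under vehicle, H2-Ob and H2-Eb2 were lower in knockout islets and the other 8 class II genes did not pass. This comparison asks how the genotypes differ without injury, and 9.64% of tested genes passed, 7.68% lower. H2-Ob had 0.317 and 0.270 CPM in knockout and 2.75 and 3.44 CPM in control, a log2 fold change of -3.39 ± 0.23 with an adjusted p of 2.805e-05. H2-Eb2 had 0 and 3 counts in knockout and 91 and 67 in control, a ratio per depth of 0.0131 (95% counting interval 0.000462 to 0.07) with an adjusted p of 0.00245. Ciita, at 0.750 and 0.588 CPM in knockout and 1.95 and 1.23 CPM in control, had an adjusted p of 0.0513. H2-Oa had 6 counts over both knockout libraries and 49 over both control libraries and did not pass, with an adjusted p of 0.195.

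The 6 genes of the core machinery had log2 fold changes of -0.46 to -0.29 under vehicle, with adjusted p of 0.0738 to 0.843. With total-count scaling, under which the median tested gene lay at 0.53, these 6 turned to 0.07 to 0.25 and did not pass. With pan-leukocyte scaling, under which the median tested gene lay at 1.10 and 70.2% of genes were higher, they turned to 0.65 to 0.84, and H2-Aa, H2-Ab1 and H2-Eb1 passed. With the library letter as a block, 6 class II genes passed, all lower in knockout (20.3% of all genes passed): H2-Aa at -0.39 (adjusted p of 0.00233 by edgeR), H2-Ab1 at -0.48 (0.0125), H2-Eb1 at -0.39 (0.0149) and Ciita at -1.23 (0.00237), besides H2-Ob and H2-Eb2. H2-Aa had 32.4 and 31.1 CPM in knockout and 42.5 and 40.7 CPM in control, with no overlap. Among 2 libraries against 2 this is often seen without a difference. H2-DMa had 2.33 and 1.19 CPM in knockout and 2.38 and 1.92 CPM in control, with overlap. B-cell markers moved with H2-Ob and H2-Eb2: 9 of 12 were lower in knockout, their sum was 4.26 and 2.98 CPM in knockout and 25.7 and 28.0 CPM in control, and 8 of 12 were at 0 in each knockout library. Acinar markers were lower too, 14 of 15 of them, with sums of 84990 and 85500 CPM in knockout and 377300 and 361900 CPM in control. The part of either in the class II values was not tested.

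At 4 wk after STZ, 9 of 10 class II genes were still higher in knockout islets than in control islets. Of all tested genes, 27.8% passed, 19.9% higher. The median log2 fold change of the 10 genes was 2.30, against 0.00 for all tested genes. H2-Aa had 160 and 190 CPM in knockout and 43.6 and 50.4 CPM in control, a log2 fold change of 1.90 ± 0.12 with an adjusted p of 7.02e-06. Cd74 had 210 and 410 CPM in knockout and 58.1 and 97.1 CPM in control, a log2 fold change of 2.00 ± 0.37. Ciita had 5.79 and 10.3 CPM in knockout and 1.18 and 1.51 CPM in control, a log2 fold change of 2.58 ± 0.33. The groups did not overlap for any of these genes, though 2 libraries against 2 often show that without a difference.

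The remaining class II genes spread more at 4 wk. H2-Ab1 had 78.3 and 125 CPM in knockout and 19.0 and 26.7 CPM in control, and H2-Eb1 had 90.3 and 124 CPM in knockout and 31.6 and 36.8 CPM in control. H2-DMa had 8.06 and 15.4 CPM in knockout and 2.18 and 3.44 CPM in control, and H2-DMb1 had 8.20 and 15.04 CPM in knockout and 1.57 and 2.69 CPM in control. All of these passed. In 9 of 10 genes library B was above library A in the knockout, and likewise in 9 of 10 in the control; macrophage markers summed to 455 and 715 CPM in knockout A and B and to 151 and 233 CPM in control A and B.

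Of the other 3 genes at 4 wk, H2-Ob had 3.87 and 3.72 CPM in knockout and 0.222 and 0.277 CPM in control, a log2 fold change of 3.92 ± 0.23. H2-Eb2 had 120 and 167 counts in knockout and 14 and 3 in control, a ratio per depth of 18.4 (95% counting interval 8.38 to 49.6). H2-Oa had 0.477 and 1.48 CPM in knockout and 0 and 0.218 CPM in control and did not pass, with an adjusted p of 0.0590. It passed without knockout library A (adjusted p of 0.0305) and without control library B (adjusted p of 0.00944), and with the library letter as a block (adjusted p of 0.0146, 47% of all genes passing). B-cell markers summed to 17.9 and 21.5 CPM in knockout and 3.20 and 4.21 CPM in control, and 10 of 12 were higher. Scaled to macrophage markers, 3 class II genes passed, Ciita at a log2 fold change of 0.82, H2-Ob at 2.21 and H2-Eb2 at 2.45, all higher in knockout, with the median tested gene at -1.71, 6.08% of genes higher and 73.6% lower. Scaled to pan-leukocyte markers, H2-Ob at 1.61 and H2-Eb2 at 1.86 were higher and H2-Aa at -0.42 and H2-Eb1 at -0.66 were lower, with the median tested gene at -2.30, 4.43% of genes higher and 81% lower.

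Within knockout islets, all 10 class II genes were higher 24 h after STZ than under vehicle. Of all tested genes, 56.4% passed, 30.1% higher. The median log2 fold change of the 10 genes was 4.00. The 6 core genes rose by 3.45 to 4.25 on the log2 scale, 10.9- to 19.1-fold. Ciita rose by 5.66 ± 0.38, to 30.8 and 37.1 CPM after STZ, against 0.750 and 0.588 CPM under vehicle. H2-Ob rose by 7.91 ± 0.26. H2-Eb2 had a ratio per depth of 1856, whose counting interval of 360 to 51700 reflects the 3 counts under vehicle. Macrophage and B-cell markers rose as well, 12 of 12 in each list. Scaled to macrophage markers, Ciita (1.28), H2-Ob (3.54), H2-Oa (4.35) and H2-Eb2 (6.43) were still higher after STZ, while H2-Aa (-0.92), H2-Ab1 (-0.78), H2-Eb1 (-0.93) and H2-DMa (-0.73) were lower, with the median tested gene at -4.39, 5.41% of genes higher and 85.5% lower.

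Within control islets, H2-Ob and H2-Eb2 were lower 24 h after STZ than under vehicle and the other 8 class II genes did not pass, while 7 of 12 macrophage markers rose. Of all tested genes, 7.56% passed, 2.15% lower. H2-Aa had 40.7 and 40.8 CPM after STZ and 42.5 and 40.7 CPM under vehicle. The log2 fold changes of the 6 core genes were -0.03 to 0.36, with adjusted p of 0.618 to 0.912. H2-Ob fell by 2.75 ± 0.22 on the log2 scale, with an adjusted p of 5.745e-05, to 0.552 and 0.369 CPM after STZ, against 2.75 and 3.44 CPM under vehicle. H2-Eb2 had 0 counts after STZ against 158 under vehicle, at least 26.2-fold lower. B-cell markers fell with them, 10 of 12, to sums of 4.39 and 4.19 CPM after STZ, against 25.7 and 28.0 CPM under vehicle.

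Macrophage markers in control islets summed to 406 and 426 CPM 24 h after STZ and 105 and 98.3 CPM under vehicle. When libraries were scaled to these markers, all 10 class II genes were lower after STZ than under vehicle, with log2 fold changes of -1.24 for H2-Aa, -1.12 for H2-Ab1, -1.004 for Cd74 and -1.41 for Ciita; the median of the 10 was -1.18, that of all tested genes -1.17, and 71% of all genes were lower, so nothing about the class II genes is read from this count. The class II sum per macrophage sum was 0.409 and 0.396 after STZ and 1.54 and 1.56 under vehicle in control islets. In knockout islets it was 0.669 and 0.671 at 24 h after STZ and 1.44 and 1.40 under vehicle. The ratio was lower 24 h after STZ than under vehicle in both genotypes. It did not overlap, which 2 libraries against 2 often show without a difference. At 4 wk it was 1.24 and 1.25 in knockout and 1.04 and 0.939 in control. Set against the pan-leukocyte sum, the class II sum did not fall in control islets, at 2.65 and 2.59 after STZ and 2.51 and 2.26 under vehicle. In knockout islets it was 1.55 and 1.68 at 24 h after STZ and 4.50 and 3.13 under vehicle. The fall in control thus held for the macrophage list only.

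**Figure D4:**
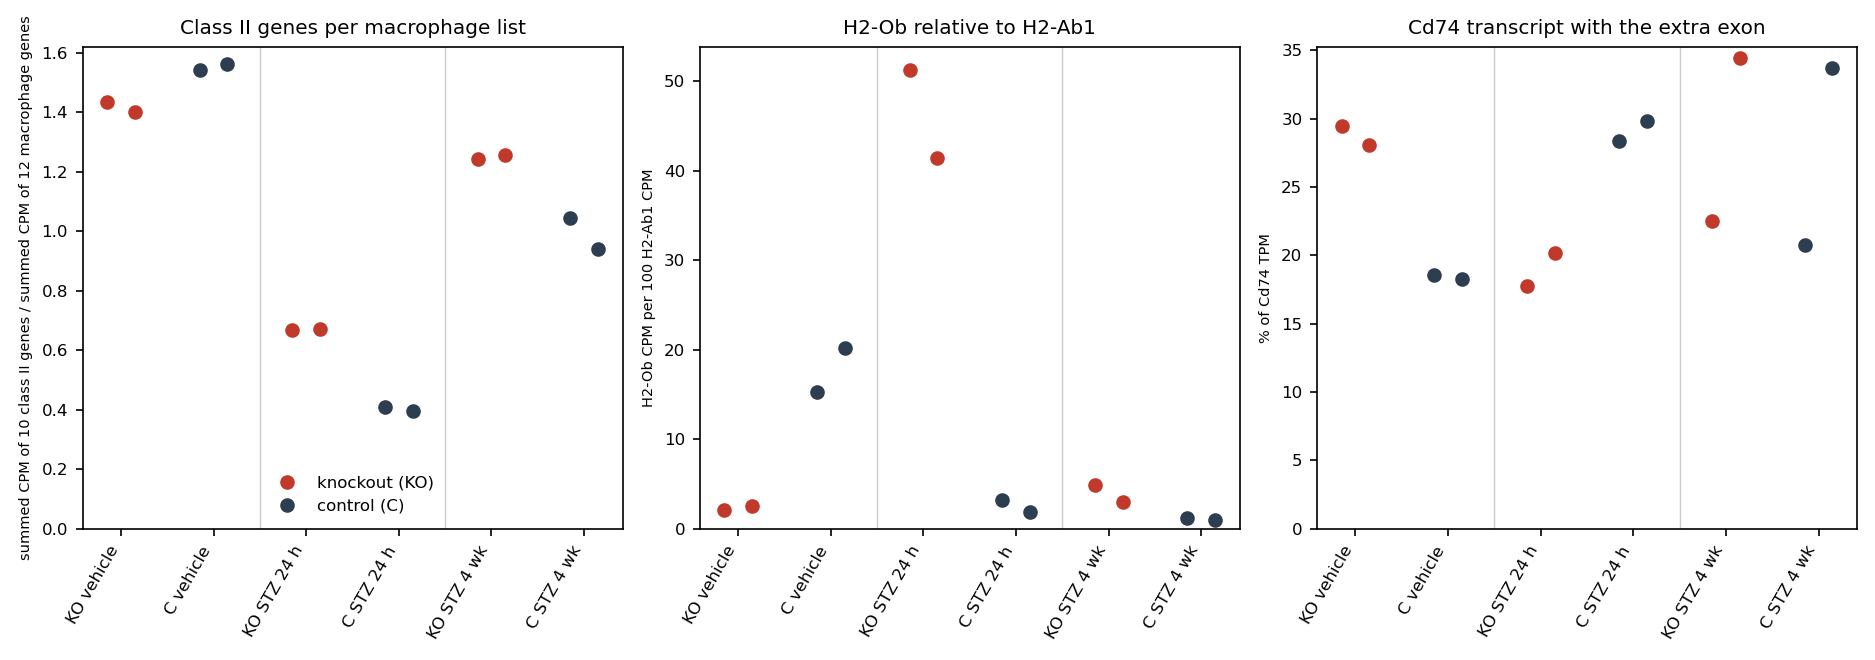
Left, summed CPM of the 10 class II genes over that of 12 macrophage markers; middle, H2-Ob CPM per 100 H2-Ab1 CPM; right, percent of Cd74 TPM from the transcript with the extra exon, each per library with knockout (red) left of control (dark). The left ratio is lowest 24 h after STZ in both genotypes, at 0.669 and 0.671 in knockout and 0.409 and 0.396 in control, and H2-Ob per 100 H2-Ab1 is 51.3 and 41.5 in knockout islets at that time.

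The difference between genotypes in the response to STZ was tested directly as an interaction. All 10 class II genes passed at 24 h, with 37.7% of all genes passing and 21.1% in the positive direction, and all 10 passed at 4 wk, with 26.1% of all genes passing and 18.7% positive. The core genes had interaction values of 3.25 to 3.90 at 24 h and 2.03 to 2.75 at 4 wk on the log2 scale. These tests share the vehicle libraries with the comparisons above. Scaled to macrophage markers, 4 of 10 passed at each time, all positive; of all genes 83.3% passed at 24 h, 4.38% positive, and 76.4% at 4 wk, 6.62% positive.

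At 4 wk against 24 h after STZ in knockout islets, 6 of 10 class II genes were lower, with 35.7% of all genes passing and 15.5% lower. H2-Aa fell by 1.03 ± 0.12 and H2-Eb1 by 1.05 ± 0.18 on the log2 scale, and Ciita by 2.07 ± 0.32. H2-Ob fell by 4.22 ± 0.22, H2-Eb2 by 4.15 ± 0.53 and H2-Oa by 3.23 ± 0.95. H2-Ab1, Cd74, H2-DMa and H2-DMb1 had log2 fold changes of -0.60, -0.99, -0.88 and -0.81 and did not pass. With the library letter as a block, all 10 passed (53.5% of all genes passing). Knockout 4 wk library B was the higher library in 9 of the 10 genes. Without it, the median log2 fold change of the 10 was -1.49, against 0.02 for all tested genes. Scaled to macrophage markers the 6 core genes were higher at 4 wk, by 0.97 to 1.41, and H2-Ob (-2.18) and H2-Eb2 (-2.13) lower, with the median tested gene at 2.13 and 83.2% of genes higher. In control islets 4 wk against 24 h, 0 of 10 passed in edgeR (5.49% of all genes passed), 2 had an unadjusted p below 0.05, 2 passed in the DESeq2 Wald test, and 1 with the letter as a block. In control islets at 4 wk against vehicle, H2-Ob and H2-Eb2 were lower (8.99% of all genes passed, 4.01% lower), and with the letter as a block 3 class II genes were higher and 2 lower (22% of all genes passed). At 4 wk against vehicle in knockout islets all 10 were higher (35.9% of all genes passed, 24.1% higher).

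H2-Ob and H2-Ab1 diverged across the series. H2-Ob had 51.3 and 41.5 CPM per 100 CPM of H2-Ab1 in knockout islets 24 h after STZ and 3.22 and 1.84 in control islets. Under vehicle it had 2.15 and 2.54 in knockout and 15.3 and 20.2 in control, and at 4 wk 4.95 and 2.98 in knockout and 1.17 and 1.04 in control. Set against the summed B-cell markers, H2-Ob stayed between 6.57 and 21.7% in all 12 libraries, while its own level ran from 0.222 to 74.1 CPM. Across the 12 libraries, the log2 level of H2-Ob had a Pearson r of 0.87 with the mean of H2-Aa, H2-Ab1, H2-Eb1 and Cd74, H2-Eb2 0.87, H2-Oa 0.92 and Ciita 0.98. The other genes outside that mean, H2-DMa and H2-DMb1, had 0.9935 and 0.9959. These values describe 12 libraries that share groups and depth.

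Ciita is transcribed from alternative promoters, each with its own first exon. In the mouse the most upstream one, promoter I, is known for use in dendritic cells and macrophages, promoter III for use in B cells and other lymphoid cells, and promoter IV for induction by interferon gamma in other cells. The annotated first exons start at chr16:10480072, chr16:10488178 and chr16:10489781, in that order along the plus strand. In knockout islets 24 h after STZ, the second of these had a coverage (mean depth per base) of 17.9 and 41.7, which was 68.5 and 81.0% of all first-exon coverage. In control islets 24 h after STZ, coverage of the second was 0 in both libraries, and the first exon held all of it, at 2.41 and 3.41.

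The second first exon was seen in few other libraries. Under vehicle it had 0 in both knockout libraries and 1.32 and 0 in control A and B, where the 1.32 was 79.3% of first-exon coverage. At 4 wk it had 0 in both knockout libraries, although their last exon had a coverage of 12.4 and 24.5, and 0 and 0.506 in control. There the most upstream exon held 100 and 91.8% of first-exon coverage in knockout and 100 and 87.5% in control. The third exon had a coverage of at most 1.41 in any library. Coverage at this level rests on few reads outside the knockout STZ 24 h libraries and knockout 4 wk B, whose most upstream exon had 11.1. In knockout 4 wk A that exon had 1.07, so its share of 100% and the 0 of the second exon rest on few reads. Exon shares were not detectable at this depth in knockout vehicle B and control vehicle B, where all 3 exons were at 0. No test was run on these values.

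**Figure D5:**
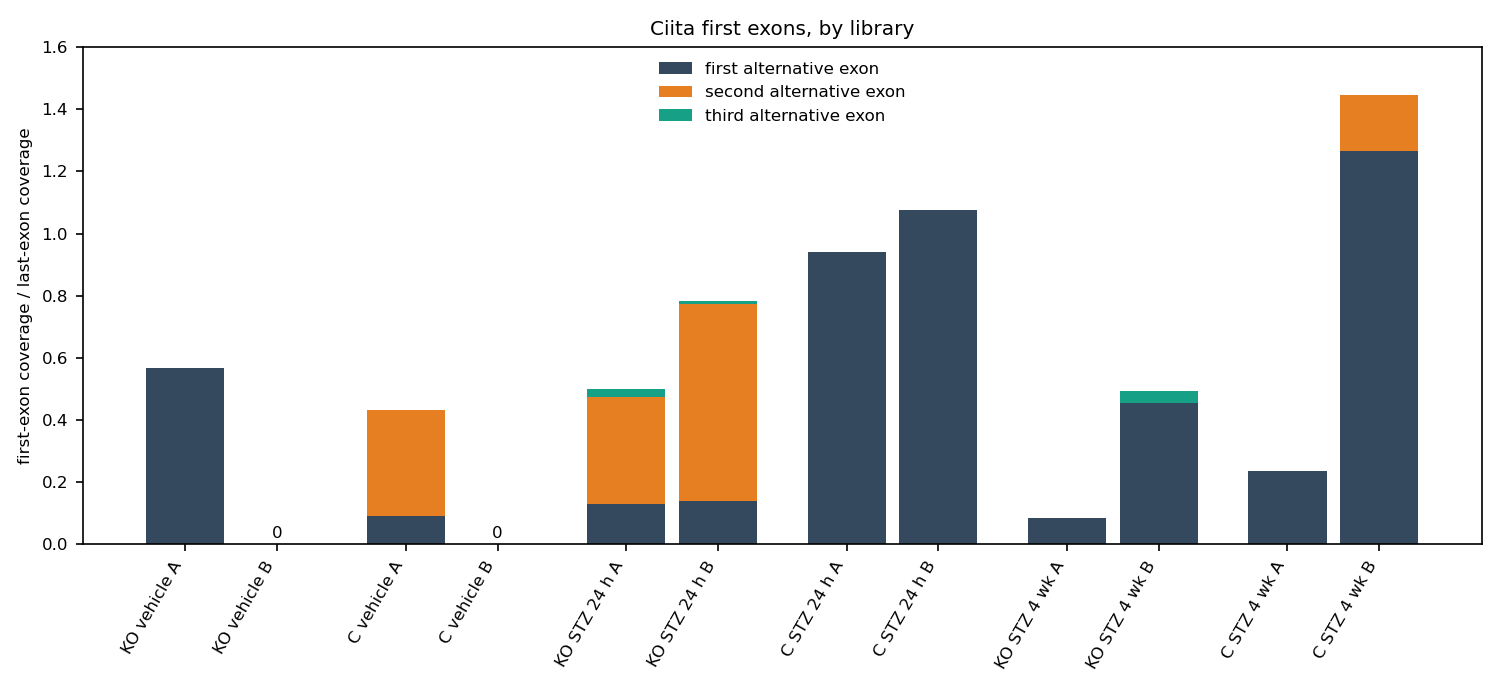
Coverage of each of the 3 alternative first exons of Ciita over that of its last exon, stacked, in each library, with knockout left of control in each condition. The second exon (orange) makes up 0.343 and 0.635 of last-exon coverage in knockout islets 24 h after STZ and is at 0 in control islets 24 h after STZ and in both knockout 4 wk libraries.

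Cd74 has a short and a long transcript, and the long one carries an extra exon of 192 bases that encodes a thyroglobulin-type domain known to inhibit cysteine proteases. The long transcript made up 17.8 and 20.2% of Cd74 TPM in knockout islets 24 h after STZ and 28.4 and 29.8% in control islets. Under vehicle it made up 29.5 and 28.0% in knockout and 18.6 and 18.2% in control. Neither pair of groups overlapped, which 2 libraries against 2 often give without a difference, and the order was opposite in the 2 conditions. At 4 wk the shares were 22.5 and 34.4% in knockout and 20.8 and 33.7% in control, with overlap. The estimated split rests on reads over that exon, and with 2 libraries a group no test was run.

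Other genes of the pathway were counted from lists. Of 16 tested genes of class II proteolysis and trafficking, 9 were higher and 2 lower in knockout islets 24 h after STZ, with a median log2 fold change of 1.13. For all tested genes, 43% passed in that comparison and 23.7% were higher. Ctss, the protease cathepsin S that trims the invariant chain, had 234 and 225 CPM in knockout and 36.8 and 34.0 CPM in control, a log2 fold change of 2.70 ± 0.11. Lgmn, an asparagine endopeptidase, had 134 and 140 CPM in knockout and 28.1 and 25.3 CPM in control, and Ctsb, cathepsin B, had 877 and 871 CPM in knockout and 288 and 290 CPM in control. At 4 wk 8 of the 16 were higher and 2 lower (27.8% of all genes passed, 19.9% higher). Under vehicle 3 of 16 were lower in knockout (9.64% of all genes passed, 7.68% lower).

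Of 17 tested regulators of class II genes, 7 were higher and 2 lower in knockout islets 24 h after STZ. For all tested genes, 43% passed and 23.7% were higher. The median of the regulators, 0.13, lay near the 0.00 of all genes. Among the regulators of smallest adjusted p were factors of leukocytes. Irf8, a factor of myeloid and B cells, had 51.3 and 54.7 CPM in knockout and 1.94 and 2.10 CPM in control, and Irf4, of activated B cells and plasma cells, had 20.8 and 19.3 CPM in knockout and 0.333 and 0.433 CPM in control. The subunits of the complexes that bind the X and Y boxes behaved differently. Rfx5 and Rfxank, at log2 fold changes of -0.17 and 0.13, did not pass, Rfxap was lower at -0.37, Nfya was higher at 0.76, Nfyb at 0.01 did not pass and Nfyc was lower at -0.47; these 6 were named after their values were seen.

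Of 16 genes of the interferon gamma axis, 15 were higher in knockout islets 24 h after STZ and 12 at 4 wk, with medians of 1.71 and 1.36. For all tested genes, 23.7% were higher at 24 h and 19.9% at 4 wk. Ifngr1, a receptor chain for interferon gamma, had 74.3 and 71.1 CPM in knockout and 24.5 and 23.3 CPM in control at 24 h. Gbp3, an interferon-induced GTPase, had 33.7 and 30.9 CPM in knockout and 4.77 and 5.30 CPM in control. All 12 genes of costimulation and CD4 help were higher in knockout at 24 h and 11 at 4 wk. Icosl, a ligand for T-cell costimulation, had 31.2 and 33.7 CPM in knockout and 3.12 and 3.28 CPM in control at 24 h, and Cd86, which binds CD28, had 22.4 and 17.3 CPM in knockout and 1.64 and 1.43 CPM in control.

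Outside the class II genes, 8 of 13142 candidate genes followed the mean log2 level of H2-Aa, H2-Ab1, H2-Eb1 and Cd74 most closely over the 12 libraries, with Pearson r of 0.99 each. They included Il2rb, Stat6, Stk10, Ostf1, Plcb2, Psmb8 and Mzb1. Il2rb, a chain of the interleukin 2 receptor, had 9.40 and 11.5 CPM in knockout islets 24 h after STZ and 0.167 and 0.393 CPM in control islets. Stat6, a signal transducer of interleukin 4, had 75.9 and 81.5 CPM in knockout and 32.9 and 33.8 CPM in control.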

How the data were processed

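Islet RNA from 12 libraries was measured by stranded mRNA sequencing. The authors deposited expected counts per gene (estimated counts, not scaled) and, per library, transcript files with coverage and TPM values. Per the file headers, these come from StringTie 1.3.6 run on a fixed mm10 annotation with a strand option, and the aligner was not given in the sources used here. Every deposited transcript count (421428 of 421428, within 1 count) is the coverage times the length divided by 75 and rounded up, so counts are proportional to read numbers and not equal to them. The labels give pairs of 100-base reads, so a fragment yields about 2.67 counts.

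Differences in counts were tested with edgeR 4.0.16 under R 4.3.3 (TMM factors 0.83 to 1.21, filterByExpr, robust quasi-likelihood F test, two-sided), with all 12 libraries in 1 fit of 6 group means and 11 comparisons. P-values were adjusted by Benjamini-Hochberg over 17411 tested genes within each comparison, at a threshold of 0.05. SE was taken as the size of the log2 fold change divided by the square root of F. The method was tested on counts simulated from the control vehicle means with few genes changed. That setting lacks the wide shifts seen here, so it does not give the error rate in these data. CPM use TMM-scaled library sizes. Likeness was computed on log2(CPM + 0.5) over genes with a mean of at least 2 CPM. Exon coverage was summed over transcripts. Python 3.11.15 was used for transcripts and promoters.

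The 10 class II genes, the other lists and the comparisons were chosen with earlier results of these data known. All 10 class II genes are named, and from each other list at most the 3 genes of smallest adjusted p in knockout against control 24 h after STZ; the results of some genes that these rules name are not reported here. The alternatives were DESeq2 1.42.0 size factors and Wald test, total-count scaling, scaling to pan-endocrine, macrophage or pan-leukocyte markers, no filter, the replicate letter as a block, only the libraries compared, and leaving out each library. The gap between libraries A and B, in log2 CPM, correlated between the genotypes over 17411 genes, by 0.36 in vehicle libraries, 0.15 in those taken 24 h after STZ and 0.78 in those of 4 wk, and the labels name no shared animal or batch. The fit with the letter as a block within each condition is given beside each result whose call it changed.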

Additional observations from a re-analysis of the deposited data

Results flagged for a closer look

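The change after STZ differed between knockout and control islets by the interaction test of edgeR, with the vehicle libraries shared by both times. At 24 h, 10 class II genes passed, with 37.7% of all genes passing and 21.1% in the positive direction. The difference in log2 fold change, knockout minus control, was 3.52 for H2-Aa, 3.51 for H2-Ab1, 3.32 for H2-Eb1, 3.53 for Cd74, 3.25 for H2-DMa and 3.90 for H2-DMb1. It was larger for Ciita at 5.86, H2-Oa at 10.16 and H2-Ob at 10.65. At 4 wk, 10 passed as well, with 26.1% of all genes passing and 18.7% positive. The differences were 2.29 for H2-Aa, 2.62 for H2-Ab1, 2.03 for H2-Eb1, 2.45 for Cd74, 2.35 for H2-DMa and 2.75 for H2-DMb1, and 3.83 for Ciita, 6.64 for H2-Oa, 7.31 for H2-Ob and 10.27 for H2-Eb2, the last on 3 counts in the knockout vehicle group. No value is given for H2-Eb2 at 24 h, where the control STZ group had 0 counts. Scaled to macrophage markers, 4 class II genes passed at 24 h (83.3% of all genes) and 4 at 4 wk (76.4%), all positive. Scaled to pan-leukocyte markers, 3 were positive and 6 negative at 24 h (89.7%), and 2 and 2 at 4 wk (84.9%). Macrophage and B-cell markers differed in the same direction in these libraries, and their part was not tested.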

How the results depend on the processing

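Counts of class II genes past the threshold are given as higher and lower in the group named first. The share of all tested genes that passed in the same setting is added, except where a library was left out. Under vehicle (2 of 10, both lower in knockout), 6 passed with pan-endocrine scaling (26.3%), 5 with pan-leukocyte scaling (3 higher, 2 lower, 74.2%), 6 with the replicate block (20.3%) and 5 in the DESeq2 Wald test (15.4%). Knockout against control gave 5 (all higher, 87.5%) with macrophage and 7 (2 higher, 5 lower, 91.6%) with pan-leukocyte scaling at 24 h, and 3 (79.7%) and 4 (2 higher, 2 lower, 85.4%) at 4 wk. STZ 24 h against vehicle in knockout gave 8 (4 higher, 4 lower, 91%) with macrophage and 9 (3 higher, 6 lower, 91.8%) with pan-leukocyte scaling; in control it gave 10 (all lower, 74.2%) with macrophage scaling and 3 with only the libraries compared (34.3%), Cd74 passing at 0.20. STZ 4 wk against vehicle gave 6 (85.3%) and 3 (87.5%) in knockout under these scalings; in control it gave 5 with total-count scaling (3 higher, 2 lower, 24.7%), 5 with the replicate block (3 higher, 2 lower, 22%), 7 with pan-leukocyte scaling (5 higher, 2 lower, 54.1%) and 1 to 2 with a library left out, 1 without control vehicle A. STZ 4 wk against 24 h in knockout had a median log2 fold change of -1.49 to -0.87 with a library left out. It gave 10 with pan-endocrine scaling (71%), the block (53.5%) or the Wald test (40%). It gave 8 (6 higher, 2 lower) with macrophage (84.9%) and with pan-leukocyte scaling (87.1%). In control it gave 1 with pan-endocrine scaling (7.86%), 8 with macrophage scaling (66.6%), 5 with pan-leukocyte scaling (46.4%), 1 with the block (13.3%), 2 in the Wald test (10.3%) and 0 to 1 with a library left out, 1 without control 4 wk B. The interaction gave 4 (83.3%) and 9 (3 higher, 6 lower, 89.7%) at 24 h and 4 (76.4%) and 4 (2 higher, 2 lower, 84.9%) at 4 wk with macrophage and pan-leukocyte scaling. The cause was not tested.

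Single genes were recomputed for knockout against control in each condition. They were also recomputed for STZ 24 h against vehicle in each genotype and for knockout 4 wk against 24 h. Other comparisons, the interactions included, were not counted by gene. Of the 780 recomputed log2 fold changes, 64 changed sign. In 19 of them the value passed the threshold in neither setting, 8 under total-count scaling, 6 under macrophage or pan-leukocyte scaling, 1 under pan-endocrine scaling and 4 with a library left out. The other 45, past the threshold in at least 1 of the settings, were all under macrophage or pan-leukocyte scaling. With macrophage scaling, STZ 24 h against vehicle in knockout became -0.92 for H2-Aa, -0.78 for H2-Ab1, -0.93 for H2-Eb1, -0.62 for Cd74, -0.73 for H2-DMa and -0.14 for H2-DMb1. In control it became -1.12 for H2-Ab1, -1.08 for H2-Eb1, -1.004 for Cd74, -0.85 for H2-DMa and -0.86 for H2-DMb1. STZ 4 wk against 24 h in knockout became 1.002 for H2-Aa, 1.41 for H2-Ab1, 0.97 for H2-Eb1, 0.999 for Cd74, 1.11 for H2-DMa and 1.18 for H2-DMb1, and H2-Eb1 in knockout against control at 4 wk became -0.092. With pan-leukocyte scaling, knockout against control under vehicle became 0.72 for H2-Aa, 0.65 for H2-Ab1 and 0.73 for H2-Eb1, and, without passing, 0.66 for Cd74, 0.84 for H2-DMa and 0.81 for H2-DMb1. At 24 h it became -0.93 for H2-Aa, -1.01 for H2-Ab1, -1.12 for H2-Eb1, -0.99 for Cd74, -1.10 for H2-DMa and -0.46 for H2-DMb1, and at 4 wk -0.42, -0.16, -0.66, -0.32 and -0.25 for the first 5 of these. STZ 24 h against vehicle in knockout became -1.62, -1.52, -1.67, -1.39, -1.51 and -0.86 for the same 6 genes, and STZ 4 wk against 24 h became 1.32, 1.75, 1.298, 1.36, 1.46 and 1.54, with Ciita at 0.27.

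Leaving out each library turned the sign of 4 of 240 recomputed values, in the comparisons counted by gene above. The replicate block, set within each condition, changed no other count of calls by over 1.5 times; between conditions it takes out spread that both genotypes share and so can make p-values smaller. With 2 libraries a group, the precision of H2-Oa and H2-Eb2 is limited by their low counts.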

Other observations

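The class II region also holds genes outside the 10. Psmb8, an immunoproteasome subunit for class I peptides, had 41.0 and 44.0 CPM in knockout islets 24 h after STZ and 8.37 and 8.73 CPM in control islets. H2-DMb2, the near-identical neighbour of H2-DMb1, had 19.3 and 21.3 CPM in knockout and 0.281 and 0.0721 CPM in control at that time, and was lower in knockout under vehicle, at 0.0866 and 0.123 CPM against 0.881 and 0.694 CPM in control (adjusted p of 0.0149). Btnl2, a butyrophilin-like gene of intestinal epithelium, was at 47.1 and 57.5 CPM in knockout islets at 4 wk and 1.61 and 1.83 CPM in control islets, in the libraries with 14050 and 14900 CPM of intestinal markers in knockout and 502 and 527 CPM in control.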
